A study of Mus musculus with 13 samples.

Results

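Sox5, Sox6 and Sox13 are the 3 SoxD genes of the mouse, and the peaks listed at them were analysed by stage of oligodendrocyte development. The members were chosen by name, 3 of 21938 protein-coding genes of GENCODE M21. For H3K4me3 and H3K27me3, every listed peak within 2 kb of any annotated transcription start site (TSS) of the gene or inside the gene was taken. For OLIG2, every listed peak in the gene or within 5 kb upstream of it was taken. Positions are in mm10 (GRCm38).

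The study followed 3 stages, neural stem cells (NSCs), the progenitor cells of oligodendrocytes (OPCs) and oligodendrocytes that had newly formed (NFOs), by ChIP-Seq of H3K4me3 and H3K27me3 (6 libraries), of OLIG2 in OPCs and NFOs (2 libraries), and by RIP-Seq of OLIG2 and IgG (2 libraries). All groups were untreated cells with 1 library each, so values carry no error between animals or cultures and no difference between stages could be tested. NSCs were cultured from cortices of E14.5 mouse embryos, which the Methods call CD-1 and the labels C57BL/6. OPCs and NFOs were immunopanned from the brains of P7 C57BL/6 mice, with PDGFRα and GalC as the selecting surface antigens. The title of each RIP-Seq library names NFOs, whereas the Methods describe that assay in NSCs. The control library is titled the input of the OLIG2 RIP-Seq, whereas the Methods describe an IgG control, and it is called IgG here.

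The libraries were checked first. The antibody labels of the 6 histone libraries name the other mark than their titles do. Within 1 kb of a TSS lay 46.0 to 74.1% of the peaks in the lists titled H3K4me3 and 9.71 to 21.5% of those titled H3K27me3, and the titles were used. The H3K4me3 lists held 33292 (NSCs), 18284 (OPCs) and 21736 (NFOs) peaks and covered 37.9, 21.4 and 10.6 Mb. The H3K27me3 lists held 36069, 29417 and 12688 peaks in the same order. By their names the NSC histone peaks come from single-end reads and those of the later stages from paired-end reads, so widths are not on 1 scale. H3K4me3 was listed near a TSS of all 5 NSC markers and all 5 OPC markers in both NSCs and OPCs, so these markers do not separate the 2 stages. Of 5 NFO markers, 2 had such a peak in NSCs, 3 in OPCs and 1 in NFOs, where Mbp, Enpp6, Bcas1 and Mog had none. In the NFO list, 3 of 5 NSC markers, 4 of 5 OPC markers, 3 of 4 neuronal and 1 of 4 astrocyte markers had a peak. All 4 neuronal markers had one in NSCs and in OPCs, and of the 4 astrocyte markers 2 had one in NSCs and 1 in OPCs. Microglial and endothelial markers had none in NSCs or NFOs, and in OPCs 1 of 4 microglial and 0 of 3 endothelial markers did.

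SoxD proteins are HMG-box transcription factors that bind DNA through the SOX core sequence, pair through a coiled coil and carry no activation domain of their own. Sox5 and Sox6 are known in the oligodendrocyte lineage as factors that hold back specification and terminal differentiation, against the SoxE proteins Sox9 and Sox10, and in cartilage as partners of Sox9. Sox13 is the less studied relative. H3K4me3 marks active or poised promoters, H3K27me3 is the Polycomb mark of repressed genes, and OLIG2 is a bHLH factor that binds E-boxes.

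All 3 genes lie on the minus strand. Sox5 (ENSMUSG00000041540.16) spans 954 kb on chromosome 6, from 143828425 to 144781977. Its 14 transcripts start at 4 promoters, where starts within 500 bp of each other are counted as 1 promoter. Sox6 (ENSMUSG00000051910.13) spans 568 kb on chromosome 7, from 115470872 to 116038796, with 16 transcripts from 10 promoters. Sox13 (ENSMUSG00000070643.11) spans 42.1 kb on chromosome 1, from 133382303 to 133424377, with 5 transcripts from 4 promoters. Sox5 and Sox6 are thus among the longest genes of the mouse, with 0.292% and 0.798% of protein-coding genes at least as long.

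OLIG2 was listed inside all 3 genes in NFOs, and inside Sox5 and Sox6 in OPCs. The sequences under 6 of these peaks carry the comparison of the stages and are given on the plus strand of mm10, 5′ to 3′, with matches to the E-boxes CAGATG (or CATCTG on this strand), CATATG and CAGCTG in capitals. All 6 lie in introns and overlap no exon of any annotated transcript of the gene. The first and second are the Sox5 sites listed at both stages, shown as the OPC peak. The third is an NFO site of Sox5 with an E-box 2 bp from its centre. The others are the OPC site of Sox6, the highest NFO site of Sox6 and the NFO site of Sox13.
Sox5 OPC, chr6:143854493-143854722, intron 11: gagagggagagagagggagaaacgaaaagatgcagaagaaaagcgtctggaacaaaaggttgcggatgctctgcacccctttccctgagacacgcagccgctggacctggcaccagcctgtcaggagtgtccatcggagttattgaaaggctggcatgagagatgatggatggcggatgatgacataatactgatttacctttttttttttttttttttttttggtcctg
Sox5 OPC, chr6:143995289-143995518, intron 6: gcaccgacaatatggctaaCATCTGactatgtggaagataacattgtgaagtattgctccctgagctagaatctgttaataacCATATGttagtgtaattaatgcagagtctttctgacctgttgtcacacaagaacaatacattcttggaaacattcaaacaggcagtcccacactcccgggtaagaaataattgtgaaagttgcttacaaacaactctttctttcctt
Sox5 NFO, chr6:144097384-144097619, intron 3: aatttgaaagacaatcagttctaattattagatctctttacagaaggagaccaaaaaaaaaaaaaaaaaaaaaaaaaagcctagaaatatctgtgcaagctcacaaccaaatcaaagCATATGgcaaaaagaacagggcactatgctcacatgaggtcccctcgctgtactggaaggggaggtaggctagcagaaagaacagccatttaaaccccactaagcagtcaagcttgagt
Sox6 OPC, chr7:115544199-115544428, intron 11: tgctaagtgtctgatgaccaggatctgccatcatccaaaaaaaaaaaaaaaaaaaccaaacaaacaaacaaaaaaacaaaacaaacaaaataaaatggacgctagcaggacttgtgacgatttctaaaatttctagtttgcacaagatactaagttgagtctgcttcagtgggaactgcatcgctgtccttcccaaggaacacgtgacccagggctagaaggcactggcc
Sox6 NFO, chr7:115918654-115918889, intron 2: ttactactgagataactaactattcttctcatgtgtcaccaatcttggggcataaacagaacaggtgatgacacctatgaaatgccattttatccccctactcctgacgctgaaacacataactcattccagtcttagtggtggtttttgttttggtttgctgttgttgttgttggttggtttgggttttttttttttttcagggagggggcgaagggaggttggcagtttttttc
Sox13 NFO, chr1:133403434-133403669, intron 1: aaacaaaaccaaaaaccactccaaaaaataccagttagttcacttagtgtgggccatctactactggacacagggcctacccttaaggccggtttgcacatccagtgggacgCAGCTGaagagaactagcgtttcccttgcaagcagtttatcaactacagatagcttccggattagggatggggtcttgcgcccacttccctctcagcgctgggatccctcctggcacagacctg
Introns are counted along the coding transcript that starts at the main coding promoter of Sox5 and at the 5′-most promoter of Sox6 and Sox13.

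H3K4me3 was listed near a TSS of all 3 SoxD genes at all 3 stages. Among protein-coding genes, 64.3% had such a peak in NSCs, 60.8% had one in OPCs and 43.6% had one in NFOs. Only some of the promoters carried the mark. Of the 4 promoters of Sox5, 3 had a peak within 2 kb in NSCs, 2 in OPCs and 2 in NFOs. For Sox6 the counts were 4, 5 and 4 of 10, and for Sox13 they were 1 of 4 at every stage. The unmarked promoters were internal ones, such as the promoter of Sox5 at 143947106 and those of Sox13 from 133385526 to 133393270.

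**Figure D1:**
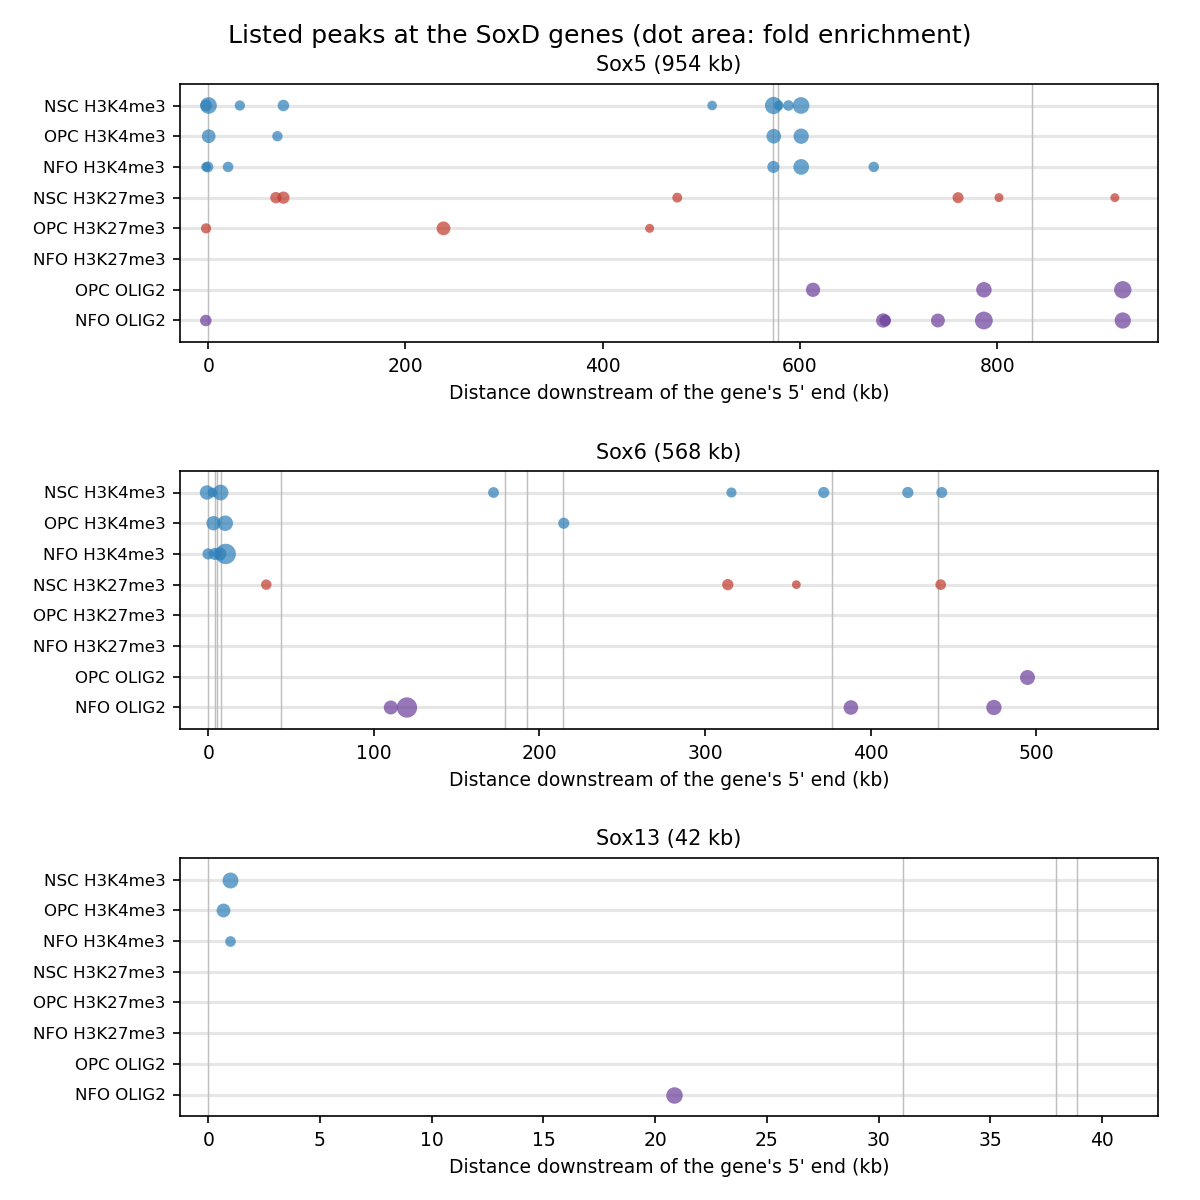
Listed peaks at Sox5, Sox6 and Sox13, 1 row for each library, against the distance downstream of the 5′ end of the gene in kb. Dots are peaks, their area is the fold enrichment, and grey lines are promoters. H3K4me3 lies at the 5′ end of each gene, at the internal promoter of Sox5 and at scattered places elsewhere in Sox5 and Sox6. OLIG2 lies in the introns except for 1 NFO peak upstream of Sox5, and the NFO H3K27me3 row is empty in all 3 panels.

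The main coding promoter of Sox5, where 4 coding transcripts start between 144209452 and 144209568, had an H3K4me3 peak of 3118 bp in NSCs (chr6:144207144-144210261), 3293 bp in OPCs (chr6:144206852-144210144) and 2404 bp in NFOs (chr6:144207716-144210119). By stage, its fold enrichment over control was 9.80, 7.06 and 4.80. The order was therefore NSC, OPC, NFO, and within each list the peak stood at percentiles of fold enrichment of 88.4, 71.3 and 62.8. The NFO peak was the 160th widest of 21736.

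The 5′-most promoter of Sox5, from which 2 noncoding transcripts start at 144781977 and 144781919, had the same order with a larger span. NSCs had a fold enrichment of 9.12, OPCs of 6.22 and NFOs of 3.96. The peak was 2223 bp wide in NSCs (chr6:144780539-144782761), 1706 bp in OPCs and 281 bp in NFOs (chr6:144782190-144782470). In NFOs the listed peak was thus a short stretch upstream of the GENCODE TSS. A second, narrow peak stood farther upstream at chr6:144783869-144784302 in NSCs (fold enrichment 4.68) and chr6:144783959-144784335 in NFOs (3.12).

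Sox5 also had a strong H3K4me3 peak with no annotated start near it. It lay in intron 1, at chr6:144180004-144181745 in NSCs, chr6:144180090-144181366 in OPCs and chr6:144180093-144181300 in NFOs. Its edge was 22312 bp from the nearest TSS of Sox5 in NSCs, and 22230 bp from the nearest TSS of any gene in GENCODE M21 or RefSeq. NSCs had a fold enrichment of 9.20, OPCs of 7.71 and NFOs of 8.12, and at both later stages it was the highest H3K4me3 peak listed at Sox5. Its percentile in the list was 85.1, 78.8 and 86.3, and its −log10 FDR was 15.7, 12.5 and 20.4. The ratio of observed to expected CpG was 0.285 under the NSC peak. It was 0.631 under the NSC peak at the 5′-most promoter and 0.340 under the one at the main coding promoter. Of the 4136 OPC peaks more than 2 kb from any TSS, 1069 (25.8%) overlapped H3K4me3 in both other stages, and 46.2% of those had a higher fold enrichment in NFOs than in OPCs. Of OPC peaks near a TSS, 32.2% of the 8531 found at all stages did.

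At Sox6 the mark formed a broad domain over the first promoters. In OPCs a single peak of 10938 bp (chr7:116030078-116041015, fold enrichment 6.81) covered 4 promoters and was the 8th widest of 18284 in the list. In NSCs the same stretch held a peak of 7226 bp (chr7:116027742-116034967, 8.18), the 76th widest of 33292, a short one of 691 bp (3.09) and one of 2194 bp over the 5′ end (chr7:116038436-116040629, 6.81). In NFOs it was split into peaks of 1741 bp (4.12), 2818 bp (4.78) and 886 bp (5.73). The domain was thus listed at every stage, whole in OPCs and in pieces in NFOs. The 5′ end of Sox6 faces 1110004F10Rik, whose TSS lies at 116039397 on the plus strand, so the part of the domain there cannot be assigned to 1 gene.

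A narrow intronic peak beside that domain went the other way. At chr7:116028127-116028876 in OPCs its fold enrichment was 7.93, and at chr7:116028127-116028358 in NFOs it was 13.7, at percentiles of 80.9 and 95.2 in their lists. Its edge lay 2171 bp from a TSS in OPCs and 2689 bp in NFOs, just outside the 2 kb window. In NSCs the position was inside the peak of 7226 bp. Elsewhere in Sox6, OPCs had a peak of 626 bp (fold enrichment 4.13) 319 bp from the internal coding promoter at 115824710, which had none in NSCs or NFOs.

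Sox13 had 1 H3K4me3 peak at each stage, on the CpG-rich promoter at its 5′ end. It was 1946 bp in NSCs (chr1:133422448-133424393), 1327 bp in OPCs (chr1:133423038-133424364) and 914 bp in NFOs (chr1:133422948-133423861). The fold enrichment was 8.37, 6.30 and 3.74, which put it at percentiles of 79.6, 60.0 and 35.7. The NFO peak ended 516 bp inside the gene and did not reach that TSS, and a RefSeq TSS lies 221 bp from it.

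**Figure D2:**
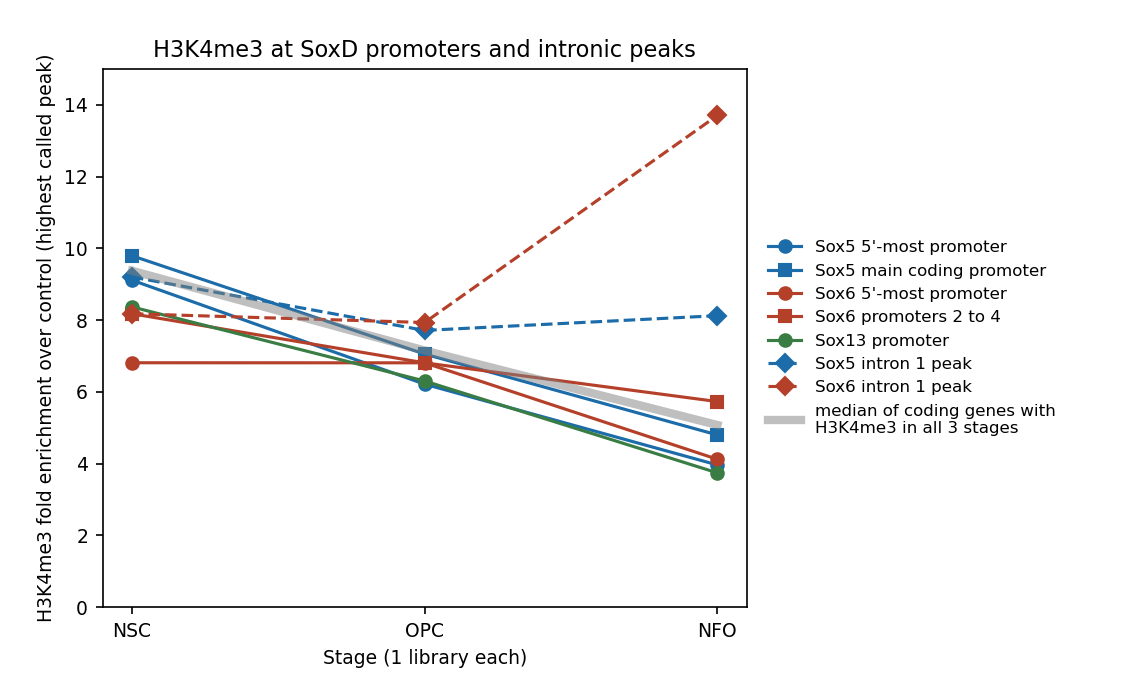
H3K4me3 fold enrichment over control (y axis) of the highest called peak at 5 promoters or promoter groups (solid lines) and 2 intronic peaks (dashed lines) of the SoxD genes, by stage (x axis, 1 library each). The NSC point of the Sox6 intronic line (8.18) is the peak of 7226 bp that covers the position and also gives the point of promoters 2 to 4. The grey line is the median of the 9161 protein-coding genes with a peak near a TSS at all 3 stages. The promoters run alongside it, while the intronic peaks of Sox5 (8.12) and Sox6 (13.7) stand above it in NFOs.

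The lower promoter values in NFOs were shared by most genes. Of 9161 protein-coding genes with H3K4me3 near a TSS at all 3 stages, 57.4% had the order NSC, OPC, NFO in their highest fold enrichment, as all 3 members did. Their medians by stage were 9.38, 7.15 and 5.08. The ratio of NFOs to NSCs was 0.490 for Sox5, 0.701 for Sox6 and 0.447 for Sox13, against a median of 0.599 with quartiles of 0.459 and 0.905. Sox13 lay just below the lower quartile, at a percentile of 22.2, and Sox5 and Sox6 lay at 31.4 and 61.5. The bases marked near a TSS were fewer in NFOs than in NSCs for 98.6% of the genes. In the order of the stages, Sox5 had 5738, 4399 and 2704 such bases, Sox6 had 8760, 11115 and 5445, and Sox13 had 1946, 1327 and 914. From NSCs to OPCs the marked bases of Sox6 were thus 1.27 times as many, where the median ratio over genes was 0.673, and 97.0% of the genes had a ratio no higher. The library difference in read layout touches this comparison, and its part was not tested.

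**Figure D3:**
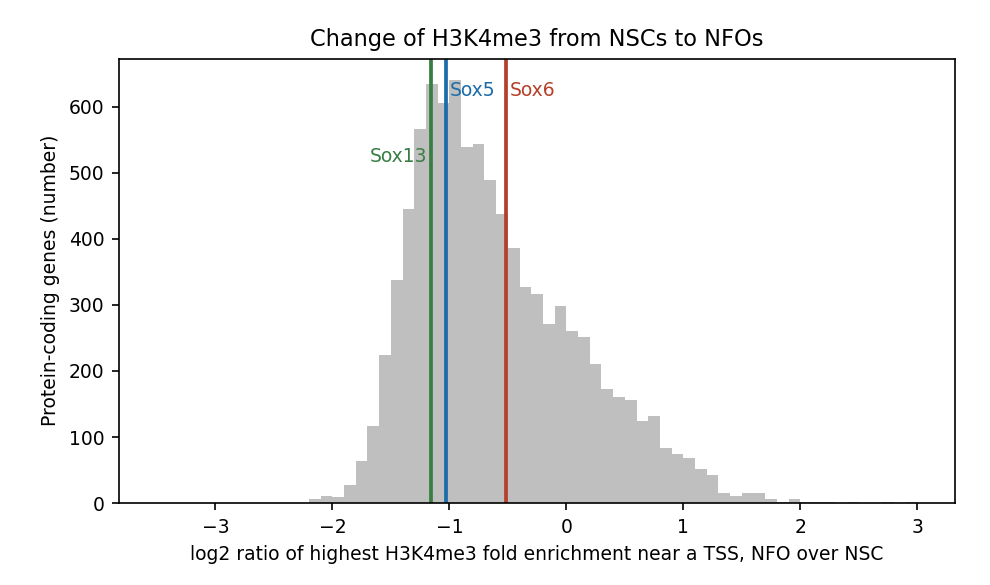
Number of protein-coding genes (y axis) by the log2 ratio of the highest H3K4me3 fold enrichment near a TSS in NFOs to that in NSCs (x axis), for the 9161 genes with a peak at all 3 stages. Coloured lines mark Sox13 (-1.16), Sox5 (-1.03) and Sox6 (-0.51), all within the bulk of the genes.

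H3K27me3 was listed at Sox5 in NSCs and OPCs, at Sox6 in NSCs, at Sox13 at no stage, and at none of the 3 genes in NFOs. Near a TSS it was listed at Sox6 in NSCs and at Sox5 in OPCs, so 1, 1 and 0 of the 3 genes had it by stage. The share of protein-coding genes with such a peak was 15.1%, 16.4% and 9.56%, from which 3 genes cannot be told apart. The Sox6 peak in NSCs, 1521 bp at chr7:115595670-115597190 with a fold enrichment of 3.78, lay 706 bp from the TSS of a noncoding transcript at 115597896 deep in the gene. The 5′ domain of Sox6 carried H3K4me3 and no H3K27me3. The Sox5 peak in OPCs, 419 bp at chr6:144783959-144784377 with a fold enrichment of 3.44, began 1982 bp upstream of the 5′-most TSS, just inside the window. It began at the same base as the narrow NFO H3K4me3 peak there and overlapped the NSC one.

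Inside the genes, NSCs had 6 H3K27me3 peaks in Sox5 and 4 in Sox6. They covered 0.317% of Sox5 and 0.793% of Sox6, with fold enrichments of up to 4.96 and 4.21. Beside the peak upstream of Sox5, OPCs had one of 260 bp (fold enrichment 2.66) and one of 175 bp at chr6:144543320-144543494 (6.28) inside Sox5, and 0 in Sox6. Sox13 had none at any stage, the nearest in NSCs being 2965 bp past its 3′ end in Etnk2. In NFOs the nearest H3K27me3 peak to Sox5 was 727 kb past its 3′ end and 1659 kb past its 5′ end. Of 737 protein-coding genes of at least 250 kb, 46.7% had an H3K27me3 peak inside them or near a TSS in NFOs, and neither Sox5 nor Sox6 did. In NSCs a narrow H3K4me3 peak lay inside an H3K27me3 peak in Sox5 (chr6:144705614-144705846, fold enrichment 4.38, within chr6:144705523-144705906, 4.96) and in Sox6 (chr7:115595719-115595880, 4.02, within the peak at 115595670). The Sox5 overlap was 63.1% repeat-masked sequence and lay 76073 bp from a TSS of Sox5.

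By these peaks Sox13 was K4 only at all 3 stages, Sox5 was K4 only in NSCs and NFOs, and Sox6 was K4 only in OPCs and NFOs. K4 only at all 3 stages were 29.9% of protein-coding genes. Sox5 in OPCs was mixed, with separate H3K4me3 and H3K27me3 peaks near its TSSs. Sox6 in NSCs was mixed as well, since its internal H3K27me3 peak overlapped the narrow H3K4me3 peak while the 5′ domain had H3K4me3 alone. No member was bivalent or K27 only at any stage. With the filter of the Methods (FDR below 0.05, fold enrichment above 3.5), Sox5 was K4 only in OPCs as well, and Sox6 stayed mixed in NSCs. With a fold enrichment above 5, or with only the TSS at the 5′ end of the gene, Sox6 was K4 only in NSCs as well.

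OLIG2 had 4 listed peaks at the SoxD genes in OPCs and 11 in NFOs. These were 0.0542% of the 7384 OPC peaks (exact binomial 95% interval 0.0148 to 0.139%) and, for NFOs, 0.0650% of 16911 (0.0325 to 0.116%), so the shares differ by less than the counting error, which is all that these intervals cover. A peak in the gene or 5 kb upstream was found at 16.5% of protein-coding genes in OPCs and 28.2% in NFOs. Among the 737 genes of at least 250 kb the shares were 67.7% and 89.6%, so that most genes above this bound had a peak, as Sox5 and Sox6 did. Sox5 (954 kb) and Sox6 (568 kb) lie well above the bound, so the counts are not matched for length. Sox5 had 3 peaks in OPCs and 6 in NFOs, and 16.1% and 11.8% of these long genes had at least as many. Sox6 had 1 and 4, against 67.7% and 32.7%. Sox13 had 0 and 1. Per 100 kb, Sox5 had 0.313 peaks in OPCs and 0.626 in NFOs, Sox6 had 0.175 and 0.698, and all protein-coding genes together had 0.392 and 0.824. The 1 NFO peak of the much shorter Sox13 came to 2.12 per 100 kb.

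**Figure D4:**
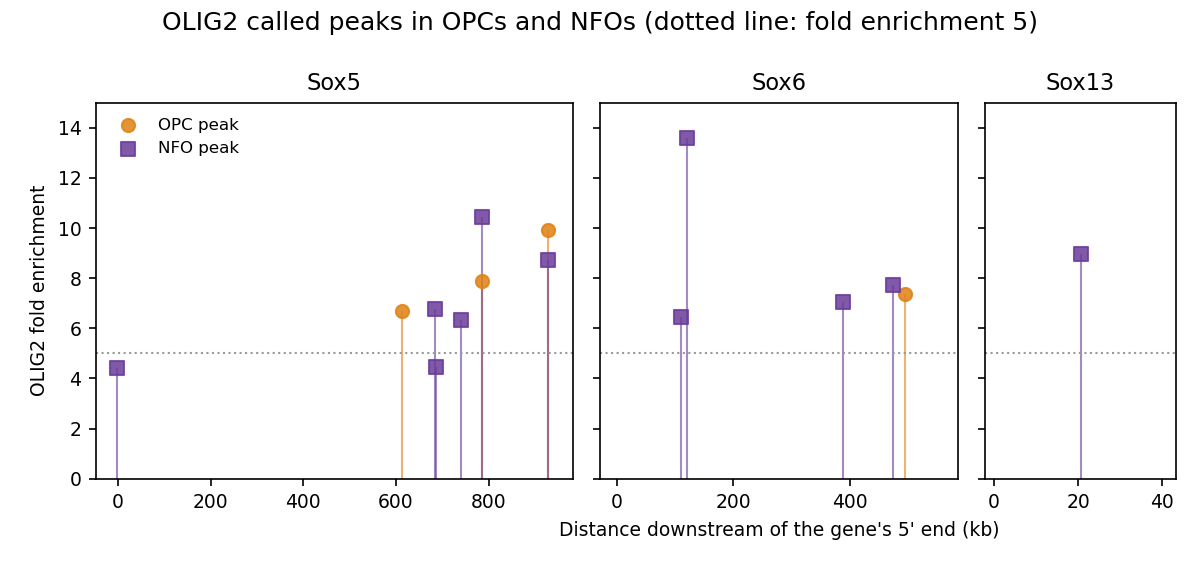
Fold enrichment (y axis) of each listed OLIG2 peak of OPCs (circles) and NFOs (squares) against the distance downstream of the 5′ end of the gene in kb (x axis). The 2 sites of Sox5 with both symbols, at 786 and 927 kb, are the ones shared by the stages, and the highest peak is that of Sox6 in NFOs (13.6).

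In Sox5, OLIG2 peaks of OPCs lay in intron 11 (fold enrichment 9.92), in intron 6 (7.88) and in intron 1 (chr6:144168583-144168812, 6.68). The sites in introns 11 and 6 were listed again in NFOs. In intron 11 the NFO peak (chr6:143854511-143854746) had a fold enrichment of 8.71 and overlapped 92.2% of the OPC peak, with the summits 21 bp apart. In intron 6 the NFO peak (chr6:143995368-143995603) had a fold enrichment of 10.5 and overlapped 65.7%, with the summits 82 bp apart. The first was thus a little higher in OPCs and the second in NFOs, at fold enrichments that carry no error. The intron 1 site lay 11278 bp from the intronic H3K4me3 peak and was listed in OPCs only. NFOs alone had 3 sites in intron 3, at chr6:144041922-144042157 (6.35), chr6:144095300-144095535 (4.46) and chr6:144097384-144097619 (6.78), and a weak one upstream of the gene at chr6:144784287-144784522 (4.42).

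At Sox6 no site was shared between the lists. The single OPC peak lay in intron 11 with a fold enrichment of 7.37. The NFO peaks lay in intron 9 (chr7:115564177-115564412, 7.73), intron 7 (chr7:115650535-115650770, 7.04) and at 2 places of intron 2 (13.6 and, at chr7:115928417-115928652, 6.44). The highest of them stood at a percentile of 87.4 of the NFO list, and the next among the members, the intron 6 site of Sox5 in NFOs, stood at 70.7. Sox13 had its peak in intron 1 (8.97), 20.8 kb from the 5′ end. Another NFO peak (chr1:133379238-133379473, 7.99) lay 2830 bp past its 3′ end, in Etnk2, and is not counted. Farther upstream, beyond the window of 5 kb, the nearest peaks were 19.7 kb from Sox5 in OPCs (16.2) and 46.3 kb from Sox6 in NFOs (7.42).

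In all, 2 of the 4 OPC peaks at the members overlapped an NFO peak (exact binomial interval 6.76 to 93.2%), and the same was true of 2 of the 11 NFO peaks for an OPC peak (18.2%, with bounds of 2.28 and 51.8%). Over the whole lists 14.3% of OPC peaks and 6.26% of NFO peaks did, and among peaks with a fold enrichment of 5 to 10 the shares were 9.88% and 3.92%. The member counts were not limited to that band, and the shared NFO peak in intron 6 of Sox5 (10.5) lies above it. With 4 and 11 peaks, a difference was not detectable.

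The overlap of OLIG2 with the histone marks was counted next, over few peaks. None of the 4 OPC peaks overlapped H3K4me3 or H3K27me3 of OPCs, where 12.6% and 10.5% of all OPC peaks did. Of the 11 NFO peaks, 1 overlapped H3K4me3 of NFOs and 0 overlapped H3K27me3, where 8.23% and 2.44% of all did. Counts this small do not separate the members from the lists. The 1 was the weak peak upstream of Sox5, on the narrow H3K4me3 peak that began at 144783959. There, the NFO OLIG2 peak, the NFO and NSC H3K4me3 peaks and the OPC H3K27me3 peak all overlapped, 46.6% of the bases under the OLIG2 peak were repeat-masked, and no fold enrichment passed 4.68. The other NFO peaks lay between 9362 and 463715 bp from H3K4me3 of NFOs.

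The E-boxes were unevenly spread over the sites shown above. Of the OPC peaks at members 1 of 4, and of the NFO peaks 6 of 11, held at least 1 of the 3 E-boxes, against 34.3% of all OPC peaks and 30.6% of all NFO peaks, searched on both strands. So few peaks do not separate the members from the lists. The shared intron 6 site of Sox5 held CATCTG and CATATG as the OPC peak, and CATATG alone as the NFO peak. The shared intron 11 site held none of them. CATATG occurred in 3 of the 11 NFO peaks (6.51% of all NFO peaks), CAGATG in 2 (17.4%) and CAGCTG in 2 (10.1%). The 2 peaks with CAGATG had fold enrichments of 4.46 and 4.42, and neither passes the filter of the Methods (above 5 for OLIG2). In Sox13 the CAGCTG lay 3 bp from the centre of the peak, and in the Sox5 peak at 144097384 the CATATG lay 2 bp from it. In the other NFO peaks with an E-box, the nearest lay 62, 104, 111 and 111 bp from the centre. The strongest site, in intron 2 of Sox6, held no E-box of the 3. The SOX core ACAAT was found in 1 of 4 OPC and 5 of 11 NFO peaks, against 31.1% and 35.0% of all. A match is only these letters in the window.

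Runs of a single base were also common, a feature chosen after the sequences were seen. A run of at least 12 bases was present in 2 of the 4 OPC peaks and 6 of the 11 NFO peaks, against 67.6% and 66.0% of all listed peaks. The shared intron 11 site of Sox5 holds a run of 23 bases and the Sox6 OPC site one of 19. Its part in the calls was not tested.

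The RIP-Seq lists, in which sites on transcripts were called from tags precipitated with OLIG2 or IgG, held sites on 2 noncoding transcripts of Sox5 and on no transcript of Sox6 or Sox13. On Sox5 there were 87 different sites with 513 tags in the OLIG2 list and 60 sites with 445 tags in the IgG list, with 4 to 14 tags a site in the former and 4 to 17 in the latter. The lists held 45157 and 37248 different sites in all. The Sox5 sites were at most 6 bp wide in the OLIG2 list and 2 bp in the IgG list, so little overlap is possible, and 2 of the OLIG2 sites overlapped an IgG site. The IgG control thus held sites on the same transcripts at like tag counts, and no depth was given to scale them.

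The genes around the SoxD proteins were described by the same peaks. Of the SoxE partners, Sox10, which drives myelin genes, had the reverse order of the members, with its highest H3K4me3 fold enrichment close to a TSS at 3.60, 8.88 and 19.2 from NSCs to NFOs. Sox10 was bivalent in NSCs and K4 only later. Sox8 had 13.2, 9.84 and 11.3 and was K4 only throughout. Sox9, the gliogenic factor, had 11.1, 7.27 and 10.6 and was bivalent in OPCs. None of the 3 SoxE genes had its lowest value in NFOs, and all 3 SoxD genes did. Over the genes with H3K4me3 at all 3 stages, the median was also lowest in NFOs (5.08, against 9.38 in NSCs and 7.15 in OPCs). Of those genes, 57.4% had the order NSC, OPC, NFO. The share with the lowest value in NFOs, whatever the order of the other stages, is therefore at least 57.4%. The difference between SoxE and SoxD genes was not tested. OLIG2 was listed at Sox8 in OPCs (14.8) and at Sox9 in OPCs (36.0) and NFOs (14.4), and at Sox10 in neither list.

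Of 4 oligodendrocyte targets, 3, 3 and 1 had H3K4me3 near a TSS at the successive stages, against 64.3%, 60.8% and 43.6% of protein-coding genes. The 1 was Pdgfra, the growth factor receptor of OPCs, at 8.41, 8.63 and 8.23. Of the 3 cofactors, Ctbp2 and the deacetylase gene Hdac1 had H3K4me3 at all 3 stages and Ctbp1 in NSCs and OPCs. Ctbp2 had 15.8, 22.2 and 23.3, with 4 OLIG2 peaks in OPCs and 3 in NFOs. Of the 6 cartilage targets, 3, 4 and 1 had H3K4me3. Lists this small cannot be told apart from the shares of all protein-coding genes. Col2a1, the main cartilage collagen, was bivalent in NSCs, mixed in OPCs and K27 only in NFOs. Hapln1, a link protein of the extracellular matrix, had 8.82, 11.0 and 17.8 and OLIG2 peaks of 70.2 in OPCs and 43.3 in NFOs. It was K4 only in NSCs and OPCs and mixed in NFOs, with H3K27me3 near a TSS (4.03).

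The genes most alike were taken as those at the smallest Euclidean distance over the highest fold enrichment in each of the 8 lists, as log2(1 + value). For Sox5 they were Magi1 (0.52), Agrp (0.53) and Pde11a (0.70), and for Sox6 they were 2210016F16Rik (0.56), Macf1 (0.57) and Rell1 (0.60). For Sox13 they were Zdhhc18 (0.10), Ndc1 (0.12) and Slc27a4 (0.16). Among the SoxD genes themselves the distance was 3.01 between Sox5 and Sox6, 4.26 between Sox6 and Sox13 and 5.27 between Sox5 and Sox13. Lists in which 1 gene has no peak and the other does, such as H3K27me3 of OPCs for Sox5 and Sox6, make up most of these distances.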

How the data were processed

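ChIP-Seq of H3K4me3, H3K27me3 and OLIG2 and RIP-Seq of OLIG2 and IgG were analysed, with samples grouped by title. The RIP-Seq control, titled an input, was called IgG after the Methods. With Bowtie2, the authors aligned ChIP-Seq reads to mm10, and they called broad histone peaks with MACS2 and OLIG2 peaks with SPP, and removed blacklisted regions. The deposited lists give each peak's fold enrichment over control, a ratio, and its −log10 FDR, both from the authors' peak callers. For RIP-Seq, the authors' ASPeak run gave the deposited tag count of each site and its p-value. The RPKM and FDR columns of the RIP-Seq lists, the 3 input libraries and OLIG2 in NSCs were not analysed here. Depth is unknown.

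All listed peaks were taken, with genes and TSSs from GENCODE M21 and sequence from the RefSeq GRCm38.p6 genome. Overlap meant at least 1 bp. Bivalent genes had overlapping H3K4me3 and H3K27me3 peaks near a TSS and no other kind, and mixed genes had several kinds. Tag sites listed on 2 transcripts were counted once. Named were the members, every OLIG2 peak, the histone peak at each promoter and the widest in the gene, fixed lists of partners, targets and cofactors, and the 3 genes most alike. 1 gene of the fixed lists is not reported here. The intron 1 peaks of Sox5 and Sox6 and the narrow overlaps were singled out after their values were seen. The members and lists were chosen with earlier results of these data known. State assignment was tested on simulated data, and 2000 of 2000 states were recovered. Alternatives were other filters, distances, overlaps and joined peaks. SciPy 1.17.1, pandas 2.3.3 and NumPy 2.4.6 were used under Python 3.11.15, with figures by Matplotlib 3.10.9.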

Additional observations from a re-analysis of the deposited data

How the results depend on the processing

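Of 69 alternative values, 54 kept within 1.5 times of the reported count and 15 did not. The stricter filters accounted for most of these. With a fold enrichment above 5, H3K4me3 peaks at the members numbered 6 in NSCs and 3 in NFOs in place of 18 and 11, H3K4me3 near a TSS remained at 1 member in NFOs, and 1 member was K4 only there. H3K27me3 then was at 0 peaks in NSCs in place of 10 and 1 in OPCs in place of 3, and was near a TSS of 0 members in NSCs and 0 in OPCs. OLIG2 peaks with a fold enrichment above 10 numbered 0 in OPCs and 2 in NFOs. With the filter of the Methods, H3K27me3 peaks numbered 6 in NSCs and 1 in OPCs, H3K27me3 was near a TSS of 0 members in OPCs, and 0 NFO OLIG2 peaks lay on H3K4me3. A TSS distance of 1 kb also left H3K27me3 near a TSS of 0 members in OPCs. The OPC state of Sox5 and the NSC state of Sox6 thus rest on 1 H3K27me3 peak each, and the latter became K4 only with a fold enrichment above 5 or with only the TSS at the 5′ end.

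No paired analysis was possible because each group has 1 library and the results come from no test. Depth is unknown, and a peak missing from a list is not evidence of no signal.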
